A study of Mus musculus with 8 samples.

Results

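The genes described here are the collagens, the laminins and 9 matrix glycoproteins and proteoglycans, as measured in CD44hi and CD44lo cells of a mouse T cell lymphoma. They were chosen by symbol: every single gene symbol of the platform annotation that reads as a collagen alpha chain (36 genes) or a laminin chain (10 genes), and Fn1, Postn, Sparc, Dcn, Lum, Vcan, Tnc, Nid1 and Thbs1. Fbn1, which belongs to the same set, was not analysed here. The 55 genes were covered by 89 probe sets, of 12393 genes and 22690 probe sets in all. The rule uses symbols and no measured values.

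RNA came from stable lymphoma lines deficient in Snf5 (encoded by Smarcb1), which belongs to the SWI/SNF complex that remodels chromatin, a deficiency that both groups carried. Cells had been purified by the surface level of CD44 into a CD44hi subpopulation (4 arrays, replicate numbers 1 to 4) and a CD44lo subpopulation (4 arrays, replicate numbers 1 to 4), with 1 Affymetrix Mouse 430A 2.0 array per sample. The labels do not say how many lines were used, nor whether each replicate was grown as its own culture, so p-values measure only how these arrays differ, which may be technical. Cd44, the sorting marker, was at 11.44 ± 0.28 on CD44hi arrays and 5.55 ± 0.45 on CD44lo arrays (log2 intensity, SD, n = 4 arrays per group), which checks the labels. The 6 measured T cell markers were above the control limit described below on every array. Array medians lay between 320.3 and 339.1 on the linear scale.

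The extracellular matrix is built from collagens, which are trimers of alpha chains wound into a triple helix, and from laminins, which are trimers of an alpha, a beta and a gamma chain. Fibrillar collagens form the cables of connective tissue, while collagen IV and laminins, linked by nidogen, form basement membranes. Glycoproteins such as fibronectin and periostin tie these networks to each other and to cells. Most of this material is made by fibroblasts, endothelium and epithelium. Lymphocytes mainly touch it as they migrate, through integrins and through CD44, best known as a receptor of the matrix polysaccharide hyaluronan.

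Of the 55 matrix genes, 1 rose in CD44hi, Lamb2, which codes for the beta chain of laminins found at synapses and in the kidney filter (limma, Benjamini-Hochberg adjusted p under 0.05 over all 12393 genes). None fell by that test. Over all genes 2.03% were called higher and 1.78% lower in CD44hi, or 3.81% in either direction, beside 1 of 55 matrix genes. With the replicate number as a block, Postn, which codes for periostin, passed as well, as the 1 matrix gene that fell. In that fit 3.08% of all genes were higher and 3.11% lower, or 6.19% in either direction. At an unadjusted p under 0.05 (limma), 2 matrix genes were higher (Lamb2 and Sparc) and 2 lower (Postn and Col7a1). Over all 12393 genes, 783 were higher and 780 lower at that threshold. These values over all genes are the background for the counts of every gene list below.

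The promoters of the 2 genes that passed in either fit are shown because the group difference lies in their transcripts. Each is the 250 bases before an annotated start in RefSeq (GRCm38.p6, plus strand), 5′ to 3′, with matches to the motifs searched in capitals.
Postn, chr3:54360857-54361106: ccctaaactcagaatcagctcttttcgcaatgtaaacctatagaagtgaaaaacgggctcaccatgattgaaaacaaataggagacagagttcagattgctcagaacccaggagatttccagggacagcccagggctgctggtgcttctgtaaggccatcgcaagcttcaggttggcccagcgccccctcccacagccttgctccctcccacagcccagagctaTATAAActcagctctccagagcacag
Lamb2, chr9:108479612-108479861: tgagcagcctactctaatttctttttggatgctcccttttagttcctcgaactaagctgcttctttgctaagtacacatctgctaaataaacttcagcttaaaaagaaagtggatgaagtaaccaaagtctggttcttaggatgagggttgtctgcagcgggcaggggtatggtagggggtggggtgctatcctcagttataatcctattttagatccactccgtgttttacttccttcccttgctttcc
The motifs were a TATA box (TATAAA), an AP-1 motif (TGANTCA), the EBF1 palindrome and a GATA motif (AGATAA), each on both strands. They were present in 12.4%, 6.75%, 0.779% and 9.99% of 32851 such windows of the mouse genome. The printed Postn window held a TATA box whose first base lies 26 bases before the start. No other match was found in these windows or in the window of the other annotated Postn start, which says only that those letters are not there. Of the 55 genes, 37 had an entry in the promoter table, with 43 windows. Of these, 8 held the TATA box (18.6%), 1 the AP-1 motif (2.33%), 2 the GATA motif (4.65%) and 0 the EBF1 palindrome.

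Periostin is a secreted glycoprotein that binds fibronectin, tenascin and collagens and is a ligand of integrins that hold the alpha V chain. Postn was at 7.11, 9.34, 7.05 and 9.19 on CD44hi arrays 1 to 4 and at 9.92, 11.25, 10.07 and 11.03 on CD44lo arrays 1 to 4 (log2 intensity). The groups did not overlap, and within each group arrays 2 and 4 were above arrays 1 and 3. Means were 8.17 ± 1.26 in CD44hi and 10.57 ± 0.67 in CD44lo (SD, n = 4 arrays per group), a log2 difference of -2.40 (SE 0.59, 95% interval -3.73 to -1.06), or 5.27-fold lower in CD44hi. That difference missed the threshold (limma adjusted p = 0.0667). Between arrays of the same replicate number, 1 to 4, the log2 differences of Postn were -2.81, -1.91, -3.02 and -1.84. Their shared sign follows from the lack of overlap and adds nothing to it. With the replicate block its SE was 0.22 and it passed (limma adjusted p = 0.0017), as it did with the number set (1 and 3, or 2 and 4) as the block (limma adjusted p = 0.00012). Among arrays numbered 1 and 3 alone the difference was -2.92 (limma adjusted p = 0.00039), and among those numbered 2 and 4 alone -1.88 (limma adjusted p = 0.0017). Without CD44hi replicate 2 or CD44hi replicate 4 the unblocked fit also passed (limma adjusted p = 0.0481 and 0.0496). The array holds 1 probe set of Postn with a single gene name, so no second measurement was at hand.

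In bulk RNA, fewer cells that express a gene and less RNA per cell cannot be told apart, and this holds for Postn. Of 12 fibroblast and stromal markers, 1 passed the test, the growth factor receptor gene Pdgfra, which was higher in CD44hi (9.47 against 6.50, log2 difference 2.97, SE 0.17, limma adjusted p = 2.33e-05). The summed linear intensity of these markers was 1288 to 1460 on CD44hi arrays and 715.6 to 1071 on CD44lo arrays, a difference that came from Pdgfra. Without it, the other 11 markers summed to 661.2 to 689.8 on CD44hi arrays and 609.9 to 997.4 on CD44lo arrays, and the ranges overlapped. By number, 1 to 4, these sums were 661.2, 675.7, 689.8 and 669.1 in CD44hi. In CD44lo they were 609.9, 906.2, 680.8 and 997.4, higher than in CD44hi at numbers 2 and 4 and lower at 1 and 3. Over the 12 markers the median log2 difference was -0.01. Fap, a protease of activated fibroblasts, was lower in CD44hi at numbers 2 and 4 (by log2 differences of -1.55 and -1.17) but not at 1 and 3 (0.31 and 0.02), and did not pass (limma adjusted p = 0.743). On no array were Pdpn, Cdh11, Tcf21 or Twist1 above the control limit, and 5 of the 12, among them Pdgfrb, Fap and Tagln, were above it on every array. The part of stromal cells in the Postn difference was not tested beyond these values.

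**Figure D1:**
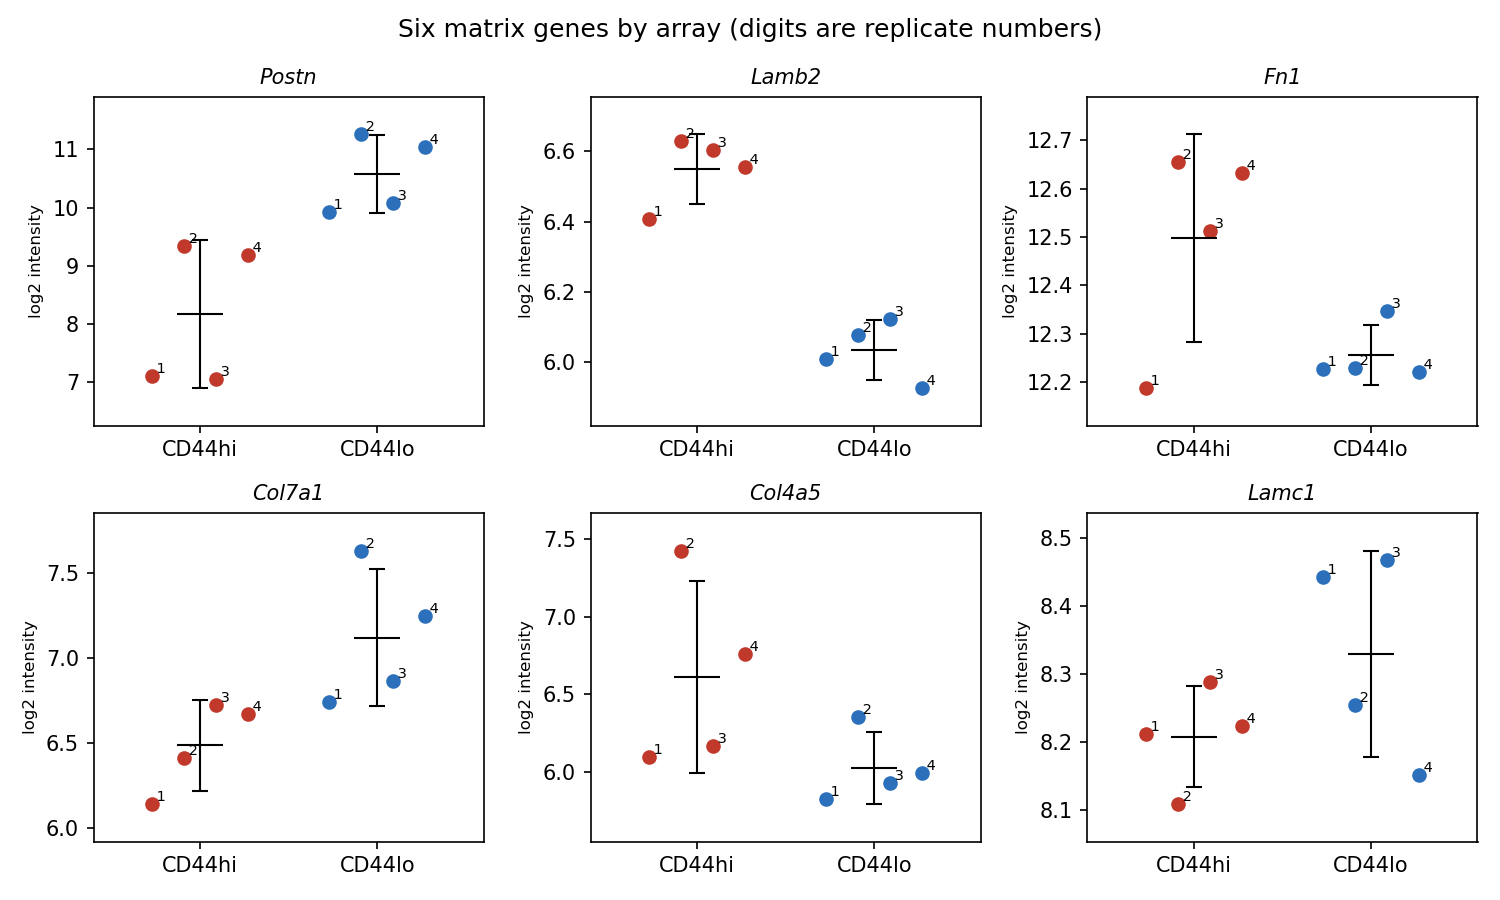
Log2 intensity (vertical axis, a separate scale in each panel) of 6 matrix genes on the 4 CD44hi and 4 CD44lo arrays, with replicate numbers beside the points and bars for mean and SD. Postn, Lamb2 and Col7a1 show no overlap between the groups, while Fn1, Col4a5 and Lamc1 overlap.

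Lamb2 gave a smaller but tighter difference, also measured by only 1 probe set with a single gene name. It was at 6.41, 6.63, 6.60 and 6.56 on CD44hi arrays 1 to 4 and at 6.01, 6.08, 6.12 and 5.93 on CD44lo arrays 1 to 4 (log2 intensity). Every CD44hi array was above every CD44lo array. The means were 6.55 ± 0.10 and 6.03 ± 0.09 (SD, n = 4 arrays per group), so Lamb2 rose by 0.52 (SE 0.08, 95% interval 0.33 to 0.70), or 1.43-fold (limma adjusted p = 0.0080, or 0.0088 with the replicate block). By replicate number the difference lay between 0.40 and 0.63, its sign at each number being fixed by the lack of overlap. It missed the threshold among arrays 1 and 3 alone (0.44, limma adjusted p = 0.0724) and among arrays 2 and 4 alone (0.59, limma adjusted p = 0.0518), where each group held 2 arrays.

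The other laminin chains did not pass. Lamc1, the gamma chain shared by most laminins, was at 8.21 ± 0.07 in CD44hi and 8.33 ± 0.15 in CD44lo (log2 intensity, SD, n = 4 arrays per group), a log2 difference of -0.12 with a 95% interval of -0.33 to 0.09. Its second probe set gave 7.82 and 8.07. Lama5, an alpha chain widespread in adult basement membranes, was at 7.21 ± 0.20 and 7.33 ± 0.25 (SD, n = 4 arrays per group), with a difference of -0.12 (95% interval -0.45 to 0.21). Lama1 lay at 5.62 in CD44hi against 5.70 in CD44lo, and Lama2 at 6.09 against 6.05. Lama3, Lama4, Lamb3 and Lamc3 were above the control limit on no array. Thus 6 of 10 laminin genes were above the limit on all arrays of both groups, and each chain class had at least 1 such member.

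The control limit used here was, on each array, the 95th percentile of 27 probe sets for Bacillus subtilis transcripts that mouse cells do not make, and it lay between 5.22 and 5.36 (log2 intensity). Probe sets differ in how well they hybridise, so a place above it is a description of that probe set and does not rank transcripts. On all 8 arrays 24 of the 55 matrix genes, or 43.6%, were above the limit, against 73.1% of all genes. On no array were 21 above it, or 38.2%, against 19.7% of all genes. The other 10 were above it on some arrays. By group, 24 were above on all 4 CD44hi arrays and 26 on all 4 CD44lo arrays, the 2 more being Col1a2 and Col22a1, each above on 3 CD44hi arrays. With the highest control probe set as limit the counts were 15 in CD44hi and 14 in CD44lo, so many of these genes sat just above background.

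**Figure D2:**
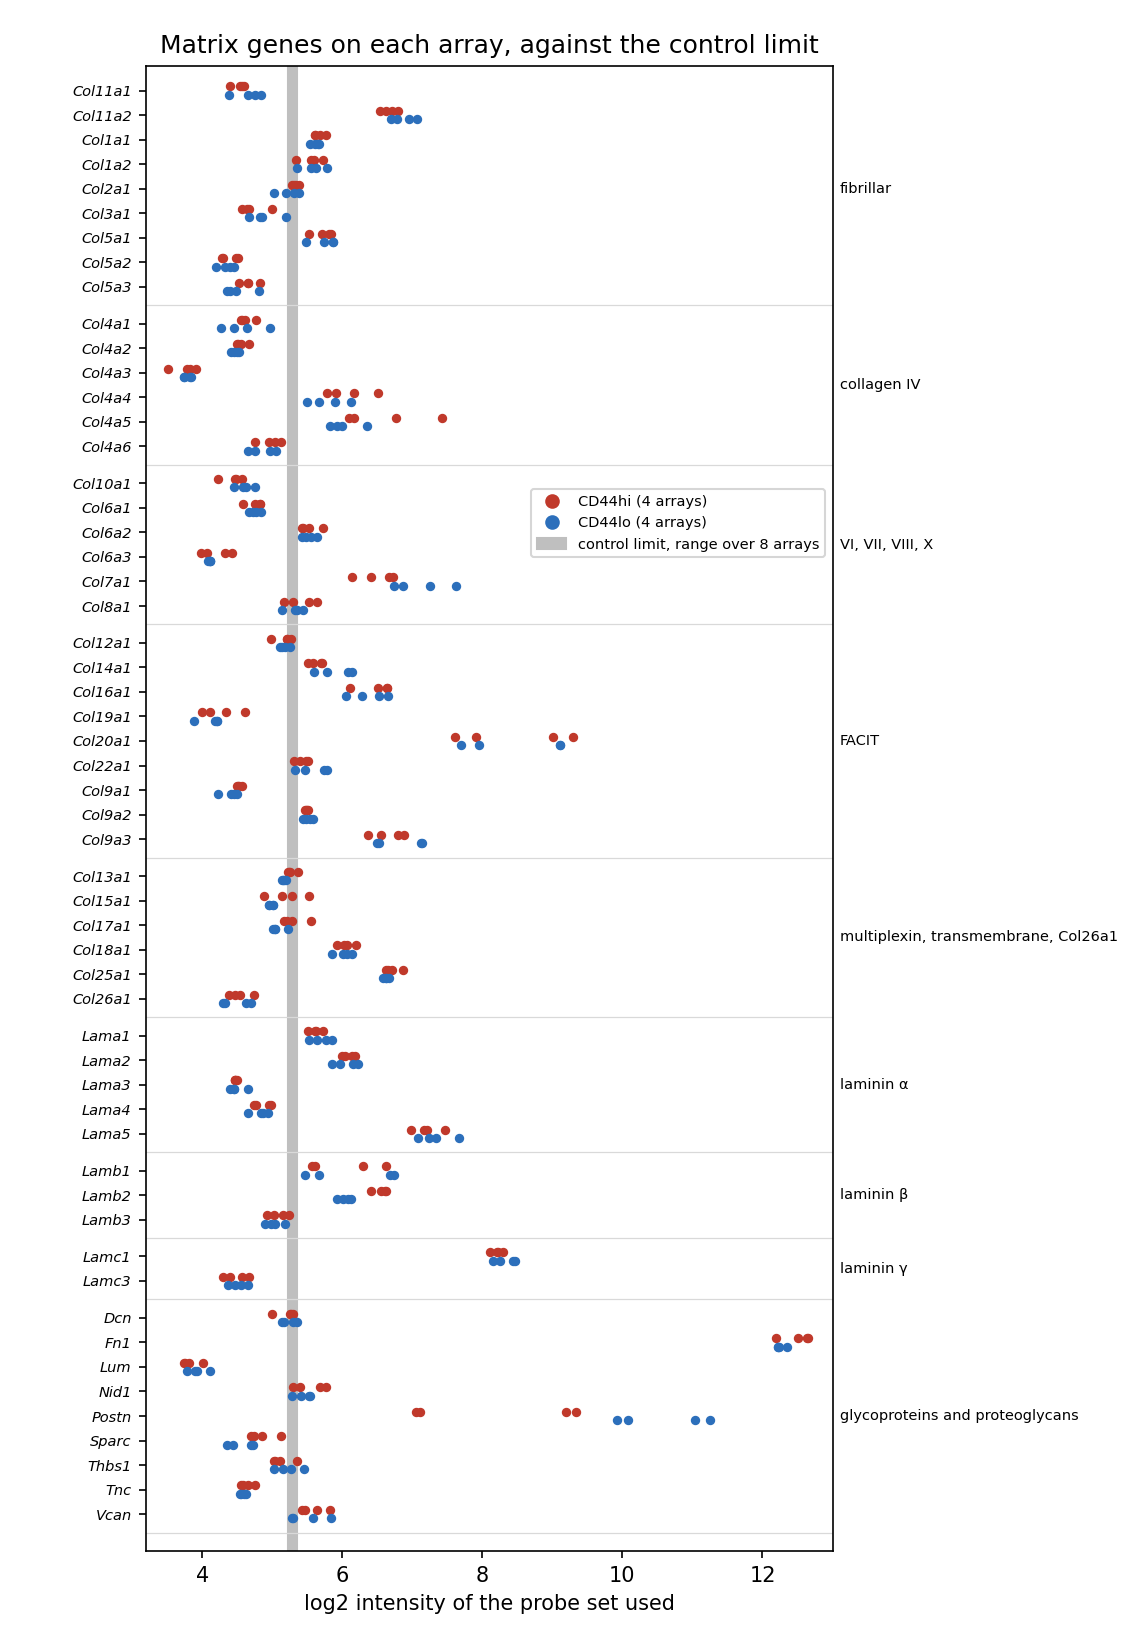
Log2 intensity (horizontal axis) of the probe set used for each of the 55 matrix genes, grouped by role, with the 4 CD44hi arrays above the 4 CD44lo arrays in each row. The grey band spans the control limits of the 8 arrays (5.22 to 5.36), and 24 genes lie right of the limit on all 8 arrays, among them Fn1, Postn, Col20a1 and Lamc1.

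Fibrillar collagens, the bulk of connective tissue, were near or below the limit, apart from Col11a2. Col1a1 and Col1a2, the chains of collagen I, averaged 5.67 and 5.55 on CD44hi arrays, against 5.62 and 5.58 on CD44lo arrays (log2 intensity). Their second probe sets averaged 4.93 and 3.77 on CD44hi arrays, against 5.08 and 3.77 on CD44lo arrays, below the mean limits. Col5a1, a chain of the collagen V that seeds collagen I fibrils, averaged 5.72 and 5.74. Col3a1, the chain of collagen III, was at 4.72 in CD44hi and 4.88 in CD44lo, and Col5a2, Col5a3 and Col11a1 were likewise above the limit on no array. Col11a2, a cartilage collagen chain, was above it on every array, at 6.67 ± 0.11 in CD44hi and 6.87 ± 0.17 in CD44lo (SD, n = 4 arrays per group). Over the 9 fibrillar genes the log2 differences ran between -0.21 and 0.15, and 0 passed (limma; 0 at an unadjusted p under 0.05 and 0 with the replicate block). The 95% interval of the difference lay within 0.5 of 0 for each of the 9.

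Collagen IV chains assemble in fixed combinations, so the separate chains are of interest. Col4a1 and Col4a2, which together form the common collagen IV of basement membranes, were above the limit on no array, and nor were Col4a3 and Col4a6. Col4a5, a chain of the collagen IV of kidney and lung basement membranes, was at 6.09, 7.42, 6.17 and 6.76 on CD44hi arrays 1 to 4 and at 5.82, 6.35, 5.93 and 6.0 on CD44lo arrays 1 to 4. The groups overlapped, with CD44hi replicate 2 highest of all. Its log2 difference of 0.59 (SE 0.28, 95% interval -0.04 to 1.21) did not pass (limma adjusted p = 0.446, or 0.0829 with the replicate block). It was positive at each of the 4 replicate numbers, as were the small differences of Col1a1 (0.05) and Tnc (0.06). How many of all genes share such a sign was not counted. The second Col4a5 probe set differed by 0.77. Col4a4, its partner chain, was at 6.09 ± 0.32 in CD44hi and 5.80 ± 0.27 in CD44lo (SD, n = 4 arrays per group), a difference of 0.29 (95% interval -0.12 to 0.70) that did not pass.

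Col7a1 codes for collagen VII, which forms the fibrils that anchor skin epithelium to the dermis. It too was measured by only 1 probe set with a single gene name. Its levels were 6.14, 6.41, 6.72 and 6.67 on CD44hi arrays 1 to 4, against 6.74, 7.63, 6.86 and 7.25 on CD44lo arrays 1 to 4. The groups did not overlap, but CD44hi replicate 3 and CD44lo replicate 1 were almost level. The log2 difference was -0.63 (SE 0.21, 95% interval -1.10 to -0.16) and did not pass (limma adjusted p = 0.183, or 0.0843 with the replicate block). By replicate number it lay between -1.22 and -0.14, its sign at each number being fixed by the lack of overlap. Among arrays 2 and 4 alone it was -0.90 (limma adjusted p = 0.0478). Of the other collagens of this group, Col6a2 was above the limit on every array at 5.53 in both groups, and Col6a1, Col6a3 and Col10a1 on none.

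In the FACIT class, collagens that decorate the surface of other fibrils, 0 of 9 genes passed (limma; 0 at an unadjusted p under 0.05 and 0 with the replicate block). On the probe set used, Col20a1 was well above the limit, at 7.61, 9.0, 7.91 and 9.30 on CD44hi arrays 1 to 4 and at 7.70, 9.11, 7.96 and 9.11 on CD44lo arrays 1 to 4. Both groups followed the replicate number and not the CD44 level. The mean difference was -0.02, with a 95% interval of -1.06 to 1.02 that the spread between numbers kept wide. The SE was 0.08 with the replicate block and 0.46 without it, and the gene passed neither fit (limma adjusted p = 0.941 with the block). Its other probe sets showed arrays 2 and 4 above arrays 1 and 3 in both groups too. They averaged 7.04 and 5.18 on CD44hi arrays, against 6.79 and 5.23 on CD44lo arrays. The dimmer one was below the limit on arrays 1 and 3 of both groups. Col9a3, Col14a1 and Col16a1 averaged 6.65, 5.63 and 6.47 on CD44hi arrays, against 6.82, 5.90 and 6.38 on CD44lo arrays, and Col14a1 was lower in CD44hi at each number without passing (limma adjusted p = 0.444). Col9a2 averaged 5.49 and 5.51, just above the limit on every array, while Col9a1 and Col19a1 were above it on none.

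**Figure D3:**
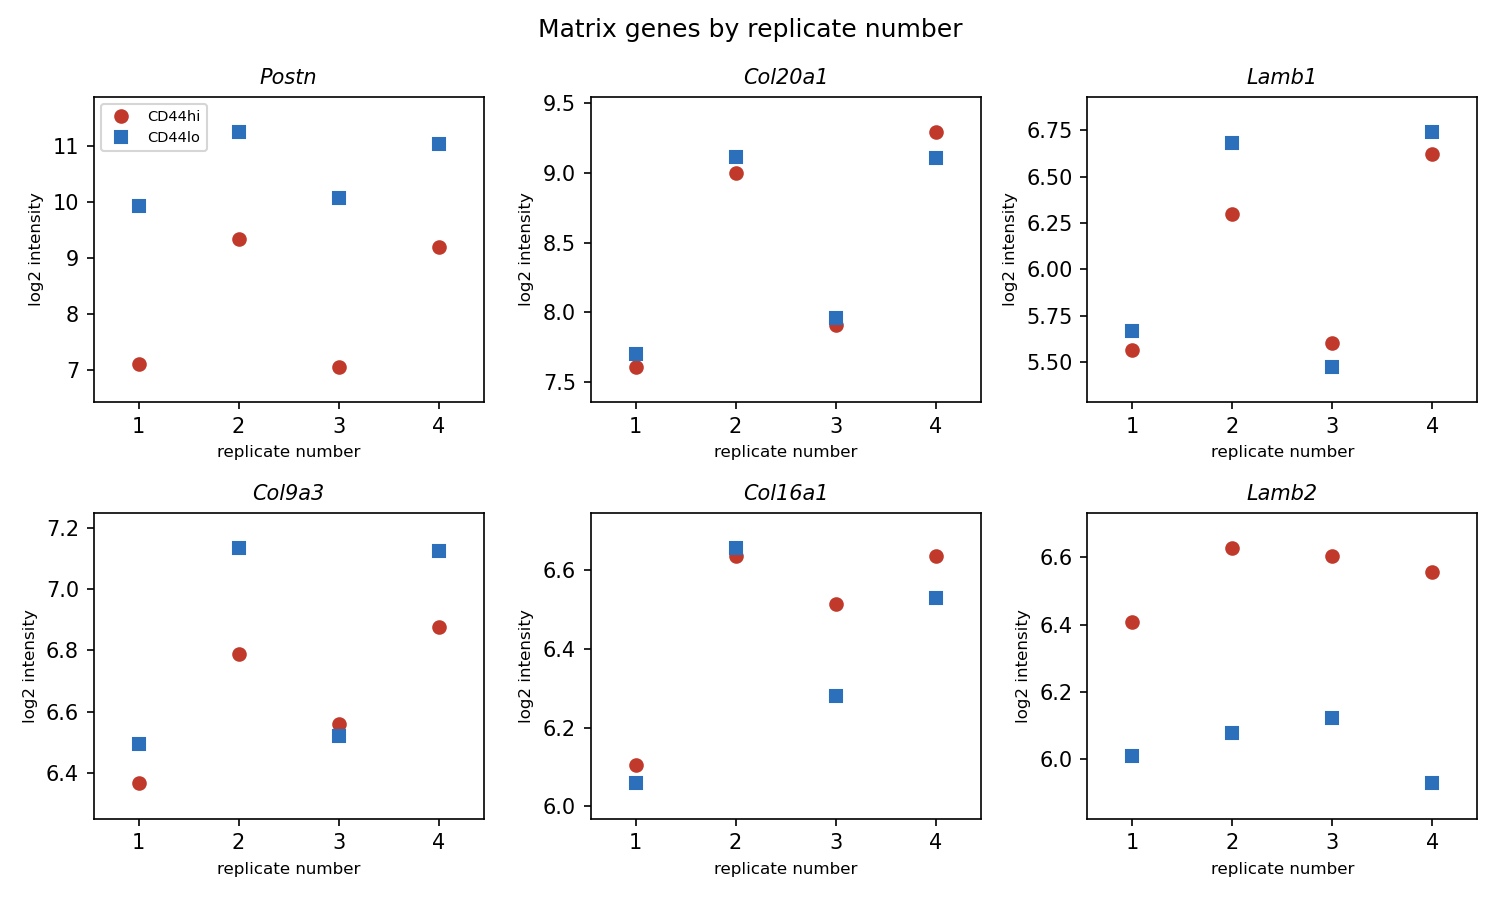
Log2 intensity (vertical axis, a separate scale in each panel) against replicate number for 6 matrix genes, CD44hi as circles and CD44lo as squares. Postn, Col20a1, Lamb1, Col9a3 and Col16a1 are higher at numbers 2 and 4 than at 1 and 3 in both groups, whereas for Lamb2 the CD44hi arrays lie above the CD44lo arrays with no such order.

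Lamb1, the laminin beta chain of most tissues, moved with the replicate number like Col20a1. It was at 5.57, 6.30, 5.60 and 6.62 on CD44hi arrays 1 to 4 and at 5.67, 6.68, 5.47 and 6.74 on CD44lo arrays 1 to 4, a group difference of -0.12 (95% interval -0.92 to 0.68) that did not pass. The other 2 Lamb1 probe sets, with means of 4.35 and 5.11 on CD44hi arrays against 4.45 and 5.14 on CD44lo arrays, did not show this order. Arrays 2 and 4 were all above arrays 1 and 3 in both groups for 8 of the 55 matrix genes (14.5%) and for 18.4% of all genes. That order was reversed for 1 matrix gene, Lama4 (1.82%), and for 16.4% of all genes. The labels do not say what the numbers stand for.

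Among transmembrane collagens and multiplexins, Col25a1, a membrane collagen of neurons, was at 6.71 in CD44hi and 6.62 in CD44lo. Col18a1, the basement membrane collagen from which endostatin is cut, was at 6.05 in CD44hi and 6.02 in CD44lo. Both were above the limit on every array and neither passed. Col13a1, Col15a1 and Col17a1 were above it on some arrays, and Col26a1 on none. Over the 36 collagens, 0 passed (limma; 1 at an unadjusted p under 0.05 and 0 with the replicate block), and 34 differed by under 0.3 on the log2 scale. The 95% interval stayed within 1 of 0, a 2-fold change, for 33 of them, Col4a5, Col7a1 and Col20a1 being the exceptions.

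Fn1 codes for fibronectin, the adhesive glycoprotein that integrins bind on many cells. Its probe set was far above the control limit, at 12.19, 12.65, 12.51 and 12.63 on CD44hi arrays 1 to 4 and at 12.23, 12.23, 12.35 and 12.22 on CD44lo arrays 1 to 4 (log2 intensity). CD44hi replicate 1 lay below all CD44lo arrays and the other CD44hi arrays above them. The means were 12.50 ± 0.22 and 12.26 ± 0.06 (SD, n = 4 arrays per group), a difference of 0.24 (95% interval -0.01 to 0.49) that did not pass (limma adjusted p = 0.421, or 0.253 with the replicate block). A second probe set gave 8.49 in CD44hi and 8.14 in CD44lo.

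The remaining glycoproteins and proteoglycans were dim. Nid1, the nidogen that links laminin to collagen IV, and Vcan, the large proteoglycan versican that binds hyaluronan, averaged 5.54 and 5.59 on CD44hi arrays, against 5.44 and 5.50 on CD44lo arrays, just above the limit on every array. Their other probe sets averaged below the limit. That of Nid1 was at 4.55 in both groups, and those of Vcan at 4.60 and 4.10 in CD44hi, against 4.46 and 3.96 in CD44lo. Dcn and Lum, small proteoglycans that regulate collagen fibrils, averaged 5.20 and 3.83 on CD44hi arrays, against 5.24 and 3.93 on CD44lo arrays. Tnc, the matricellular protein tenascin-C, was at 4.64 and 4.58, and Thbs1, thrombospondin of platelets and wounds, at 5.13 and 5.22, in CD44hi and CD44lo. Sparc, a collagen-binding matricellular protein, was above the limit on no array, at 4.86 ± 0.19 in CD44hi and 4.55 ± 0.18 in CD44lo (SD, n = 4 arrays per group). Its difference of 0.30 did not pass (limma adjusted p = 0.345), and its second probe set differed by -0.04.

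**Figure D4:**
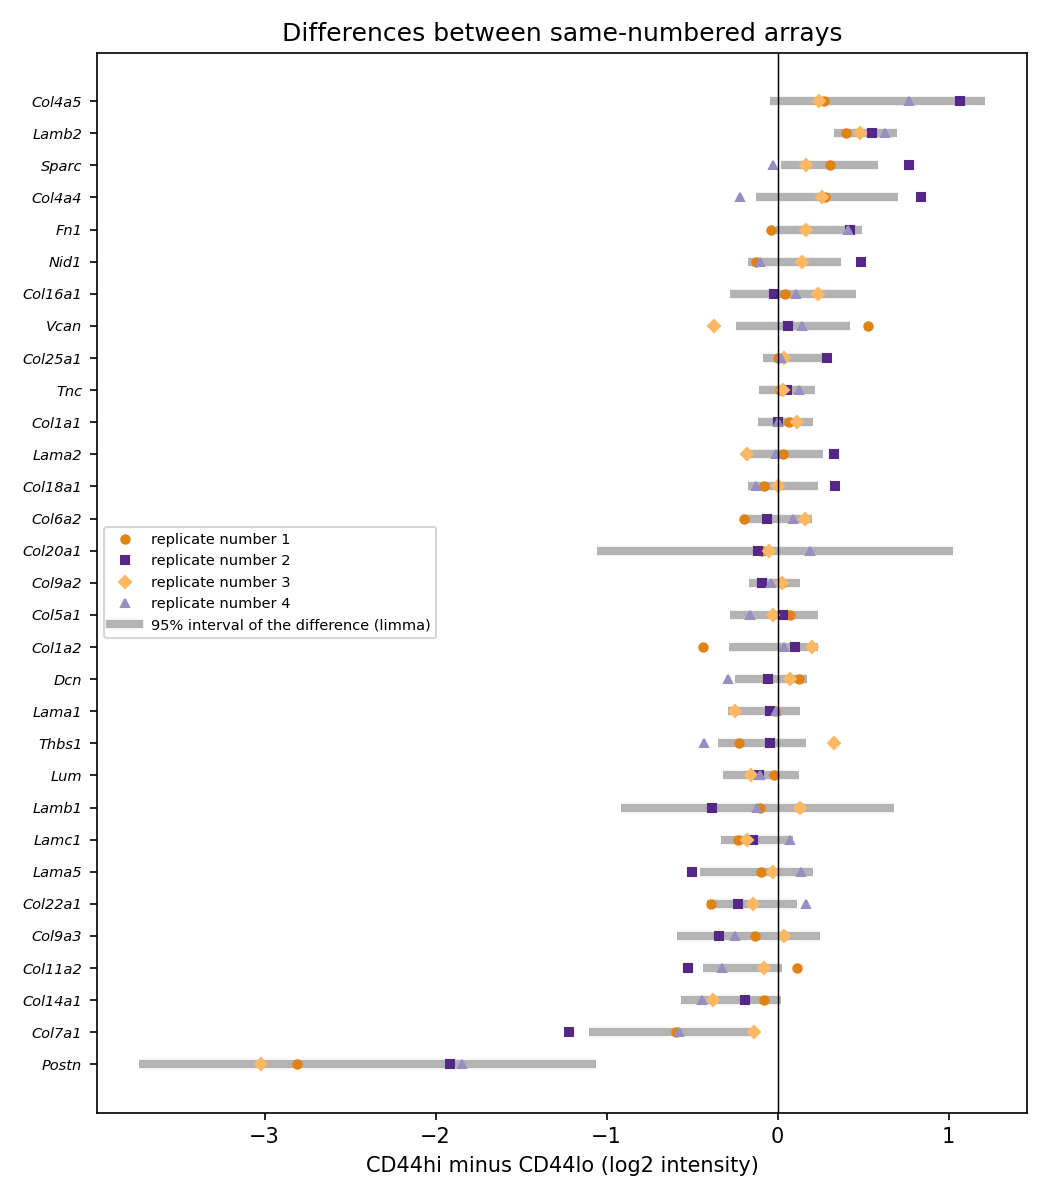
CD44hi minus CD44lo (log2 intensity, horizontal axis) at each replicate number for the 31 matrix genes named by rule, in order of their mean difference, with grey bars for the 95% interval of the limma fit without a block. All 4 numbers lie on one side of 0 for Postn, Col7a1, Lamb2 and Col4a5, among others that include Col1a1 and Tnc with small differences. Postn stands apart with differences of -3.02 to -1.84.

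Over all 55 genes the median log2 difference was 0.04, against -5.86e-05 over all genes tested. Differences under 0.3 were found for 50 of the 55 (90.9%) and for 87.5% of all genes. The groups did not overlap for 5 matrix genes, Postn, Lamb2, Col7a1, Col9a1 and Col13a1, and for 10.3% of all genes. The 95% interval lay within 1 of 0 for 51 of the 55, the exceptions being Postn, Col7a1, Col4a5 and Col20a1. RMA, the summary behind the deposited values, compresses differences of dim probe sets, and 21 of the 55 genes were above the control limit on no array.

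**Figure D5:**
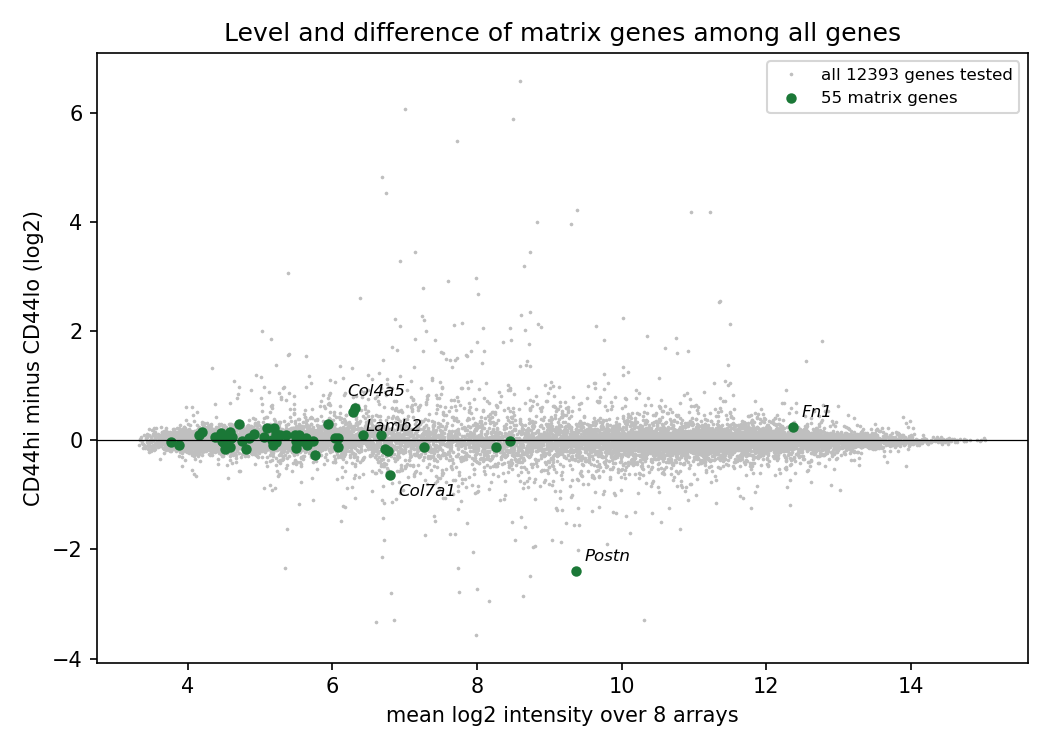
CD44hi minus CD44lo (log2, vertical axis) against mean log2 intensity over 8 arrays (horizontal axis) for all 12393 genes in grey and the 55 matrix genes in green. Most matrix genes lie at low intensity near 0, Postn lies at -2.40 and Fn1 at high intensity with a difference of 0.24.

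Genes that process collagen were measured beside the collagens. Of 20 measured collagen processing enzymes 0 rose and 0 fell (limma; 0 higher and 2 lower at an unadjusted p under 0.05), with a median log2 difference of -0.07. P4hb and Ppib, a subunit of prolyl hydroxylase and a folding enzyme of the secretory pathway that act on many proteins, averaged 13.11 and 13.77 on CD44hi arrays, against 13.31 and 13.81 on CD44lo arrays. Serpinh1, the chaperone specific to procollagen, was above the control limit on no array (3.98 and 4.10). Plod2, a lysyl hydroxylase that prepares collagen for cross-linking, was at 9.49 ± 0.43 in CD44hi and 10.20 ± 0.55 in CD44lo (SD, n = 4 arrays per group). Its difference of -0.71 did not pass (limma adjusted p = 0.347) but passed as lower in CD44hi with the replicate block (limma adjusted p = 0.0229).

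Of 42 other matrix glycoproteins and proteoglycans 2 rose and 0 fell (limma; 3 higher and 0 lower at an unadjusted p under 0.05), with a median of 0.05. Over all genes 3.81% were called in either direction. At the unadjusted threshold 783 of all 12393 genes were higher and 780 lower. Thbs3, a thrombospondin family member, rose by 1.24 (SE 0.25, limma adjusted p = 0.0260), at 10.34, 10.88, 10.51 and 11.12 on CD44hi arrays 1 to 4 and 9.0, 9.93, 9.14 and 9.82 on CD44lo arrays 1 to 4. Matn1, a cartilage matrix protein, rose by 0.67 (SE 0.11, limma adjusted p = 0.0115), at 12.55 ± 0.22 in CD44hi and 11.88 ± 0.08 in CD44lo (SD, n = 4 arrays per group). In neither gene did the groups overlap. In this list 19 genes were above the limit on all arrays and 19 on none.

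Matrix receptors were read beside the 3.81% of all genes called in either direction. Of 14 non-integrin matrix receptors 2 rose and 0 fell (limma; 3 higher and 1 lower at an unadjusted p under 0.05; median 0.02). Sdc4, a heparan sulphate proteoglycan that binds fibronectin, rose by 1.14 (SE 0.23, limma adjusted p = 0.0292), at 7.94 ± 0.51 in CD44hi and 6.80 ± 0.19 in CD44lo (SD, n = 4 arrays per group). Cd47, a receptor of thrombospondin and a signal against phagocytosis, rose by 0.63 (SE 0.14, limma adjusted p = 0.0446), a call lost with the replicate block (limma adjusted p = 0.0595) but kept with the number set as the block (limma adjusted p = 0.0168). Ddr1, a collagen receptor kinase, was at 11.37 in CD44hi and 10.92 in CD44lo and passed as higher with the block alone (log2 difference 0.45, limma adjusted p = 0.175 without it and 0.0164 with it). Of 13 integrin subunits that bind matrix 0 rose and 1 fell (limma; 0 higher and 2 lower at an unadjusted p under 0.05; median 0.00190). Itgb5, which pairs with the alpha V chain in a receptor of vitronectin and periostin, fell by 0.93 (SE 0.12, limma adjusted p = 0.0026), at 10.41 ± 0.19 in CD44hi and 11.34 ± 0.18 in CD44lo (SD, n = 4 arrays per group). Itgav, the alpha V chain itself, was at 13.65 in CD44hi and 13.58 in CD44lo and did not pass.

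Markers of other cells that make matrix were set beside these results. None of 9 endothelial, 9 macrophage or 5 platelet and megakaryocyte markers passed (limma; 1 endothelial marker lower and 0 others at an unadjusted p under 0.05, and 0 of each list with the replicate block). Above the limit on no array were 7 endothelial, 6 macrophage and 3 platelet markers, among them Cdh5, Kdr, Adgre1 and Pf4. On every array 2 endothelial (Egfl7 and Plvap), 1 macrophage (Cd68) and 2 platelet markers (Itga2b and Gp9) were above it. Cd68 followed the replicate number, at 8.01, 10.23, 8.20 and 10.29 on CD44hi arrays 1 to 4. On CD44lo arrays 1 to 4 it was at 8.20, 9.75, 8.23 and 9.76. The summed linear intensities of each list overlapped between the groups, at 471.8 to 525.5 in CD44hi and 458.9 to 514.3 in CD44lo for endothelium, 475.7 to 1467 and 506.2 to 1078 for macrophages, and 299.9 to 356.4 and 288.8 to 356.5 for platelets. Of 6 epithelial markers Krt18 rose (log2 difference 1.15, SE 0.23, limma adjusted p = 0.0272), and the sums were 2123 to 4631 in CD44hi and 2605 to 3745 in CD44lo. On all arrays 4 of the 6 were above the limit (Krt18, Epcam, Cdh1 and Krt5), and 0 were at or below it on all. Epcam, the brightest, averaged 11.42 in CD44hi and 11.37 in CD44lo. Its log2 differences at numbers 1 to 4 were 0.82, -0.93, 0.76 and -0.44. Cdh1 averaged 7.60 and 7.94 in CD44hi and CD44lo. None of the 6 T cell markers passed (limma; 0 at an unadjusted p under 0.05, 0 with the block). RNA quality was read from Gapdh and Actb control probe sets at both ends of the transcript, as log2 of the 3′ over the 5′ signal. For Gapdh this averaged 0.816 ± 0.052 on CD44hi arrays against 0.696 ± 0.036 on CD44lo arrays (SD; n = 4 per group; exact permutation test, both sides, p = 0.0286, the smallest that 70 assignments allow). For Actb it averaged 0.626 ± 0.152 on CD44hi arrays against 0.498 ± 0.105 on CD44lo arrays (SD; n = 4 per group; exact permutation test, both sides, p = 0.229). The part of other cells and of RNA quality in the differences of Lamb2, Postn and the listed genes was not tested.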

How the data were processed

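The authors' deposited values are probe set intensities from 8 arrays. The labels' protocols name RMA as their summary, with no version or options stated. They lay between 7.61 and 36128 and were read as linear; log2 was taken with no pseudocount.

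Of 22690 probe sets, 64 were controls, 20380 had 1 annotated symbol, 691 several and 1555 none. For 4956 of the 12393 genes several probe sets existed, and the one of highest mean was used. Entrez identifiers of 20351 probe sets matched RefSeq (GRCm38.p6), changing 0 symbols. Groups, from sample titles, were compared by limma 3.58.1 (R 4.3.3; lmFit, eBayes), with no covariates and Benjamini-Hochberg adjustment over all genes.

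Between arrays of the same number, departures from the group mean correlated over genes at 0.404 to 0.574, so an alternative fit took the number as a block. The main calls come from the fit without a block. Arrays of different number correlated about as strongly within the sets 1 and 3 or 2 and 4 (0.372 to 0.521) and negatively across them (-0.564 to -0.382). Departures from a group mean cancel out within the group, so positive correlations within the sets bring negative ones across them. These values do not separate a pairing by number from 2 sets. The replicate block is given where it changes a call. Simulation on 12393 genes, 200 of them changed, recovered 53.7%, 89.6% and 97% of log2 changes of 0.5, 1 and 2, and 6.98% of calls were false. The simulated arrays varied independently of each other, without the correlations given above, so these rates may not hold for the real arrays.

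The matrix genes, 4 related gene lists and 6 marker lists were chosen with earlier results of these data known. Named are matrix genes called in either fit or above the control limit on all arrays of a group, the listed glycoproteins, the called genes of other lists and up to 2 of their brightest; others were picked after their values were seen.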

Additional observations from a re-analysis of the deposited data

Results flagged for a closer look

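Each of the 55 genes was examined in each subpopulation, and in 5 of these 110 sets of 4 values 1 array stood far from the other 3. Chance gives about 1 in 20 for normally distributed values, and 5 of 110 is close to that share. Fn1 read 12.35 on CD44lo replicate 3, with 12.22 to 12.23 elsewhere in CD44lo. Dcn read 5.0 on CD44hi replicate 4, with 5.25 to 5.30 elsewhere in CD44hi. Lama3 read 4.49 on CD44hi replicate 2, with 4.46 to 4.47 elsewhere in CD44hi. CD44lo replicate 2 was the odd array for Col17a1 (5.23, with 5.02 to 5.04 elsewhere in CD44lo) and for Col19a1 (3.88, with 4.19 to 4.21). All are log2 intensities, and of these 5 genes only Fn1 was above the control limit on every array.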

How the results depend on the processing

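The 31 named matrix genes gave 555 values under other settings: 545 stayed on the same side of the threshold, 8 gained the call (7 for Postn, 1 for Col7a1), 2 lost it (Lamb2), and 0 called genes reversed. Differences of uncalled genes changed sign in 47 values of 13 genes. Postn stayed negative throughout (-2.97 to -1.88). Lamb2 stayed positive (0.44 to 0.59). Against 1 matrix gene higher in CD44hi, it was 0 when only genes brighter than the median were tested (where Lamb2 was not tested), 0 for numbers 1 and 3, 0 for numbers 2 and 4, and 0 for a log2 difference of at least 1. Leaving out 1 array gave 1 to 1. Against 0 matrix genes lower, it was 1 with array weights, 1 with the replicate block, 1 with the number set (1 and 3, or 2 and 4) as a block, an alternative chosen after seeing the data, 1 for numbers 1 and 3, 2 for numbers 2 and 4, and 0 to 1 leaving out 1 array (1 without CD44hi replicate 2 or 4). The replicate block changed the calls of Postn, Plod2, Ddr1 and Cd47, and no other call of a matrix gene. With the number set as the block Postn, Plod2 (adjusted p = 0.0358) and Ddr1 (0.00587) passed too, and Cd47 stayed called.

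Over all genes, against 252 higher and 220 lower, the replicate block gave 382 and 385, the number set as a block 522 and 544, array weights 403 and 418, numbers 1 and 3 gave 422 and 450, genes brighter than the median 102 and 113, a threshold of 0.01 gave 141 and 100, and a minimum difference of 1 gave 108 and 68. With 1 array omitted, 178 to 230 were higher and 127 to 226 lower, including 128, 142 and 127 lower without CD44lo replicate 2, 3 or 4. Against 24 matrix genes above the control limit in CD44hi and 26 in CD44lo, the median control gave 52 and 51, the highest control 15 and 14, and all bacterial and phage controls, which include bright hybridisation spikes, 0 and 0. With the mean of all probe sets of a gene the counts were 18 in CD44hi and 19 in CD44lo. Leaving out 1 array gave 24 to 26 and 26 to 27. Causes of these changes were not tested beyond what the settings' construction shows. Signal near background limits what can be said of the genes not above the control limit.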
